A study of Homo sapiens with 6 samples.

Results

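Messenger RNA of the aldo-keto reductases (AKR), the carbonyl reductases (CBR), the aldehyde dehydrogenases (ALDH) and pirin (PIR) was followed in a human pancreatic ductal cell line after 4 days of combination chemotherapy. Members were chosen by symbol: every protein-coding gene whose name begins with AKR, ALDH or CBR and a digit, plus PIR. This gave 37 of the 62754 genes measured, namely 14 AKR, 19 ALDH and 3 CBR genes and PIR. Earlier results of these data were known when the members and the gene lists below were chosen. The cells were HPNE-hTERT, a non-malignant duct-derived line that is kept growing by the catalytic subunit of telomerase. The 3 FOLFIRINOX libraries came from cells given 5 µM oxaliplatin, SN-38 (the active form of irinotecan) at 25 nM and 5-fluorouracil at 10 µM for 4 days, and the 3 vehicle libraries from cells given DMSO. All 6 libraries came from this 1 line at day 4. The deposited columns carry the numbers P14, P15 and P19 once in each group. Nothing in the labels says whether libraries came from separate cultures, so the p-values measure the spread between these libraries, which may be technical.

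Cells meet reactive aldehydes and ketones from lipid peroxidation, sugar and amino acid breakdown, alcohol, retinoids and drugs, and these protein families dispose of them by opposite reactions. Aldo-keto reductases and carbonyl reductases use NADPH to reduce an aldehyde or ketone to an alcohol; carbonyl reductases belong to the short-chain dehydrogenase fold, and both families also act on steroids, prostaglandins, quinones and anthracyclines. Aldehyde dehydrogenases use NAD or NADP to oxidise an aldehyde to its acid, and several are steps of retinoic acid, folate, proline, carnitine or branched-chain amino acid metabolism rather than detoxification enzymes. Pirin is an iron-binding nuclear protein and no reductase; it is grouped here because PIR, with several AKR and CBR genes, is a known target of NRF2, the transcription factor that is released from KEAP1 under electrophile stress and binds antioxidant response elements.

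The libraries held 83981154 to 91992824 reads in the FOLFIRINOX group and 86435436 to 97762802 in the vehicle group, and 1 read was worth 0.934 to 1.06 normalized reads. The treatment was visible in CDKN1A, the cell cycle inhibitor p21, at 22156 ± 4997 normalized reads (mean ± SD, n = 3, as for all such values) in vehicle and 203806 ± 27900.2 in FOLFIRINOX, and in the proliferation gene MKI67, at 13874 ± 3569 and 30.2 ± 6.65. The ductal label was only partly borne out: of 10 ductal epithelium markers, 6 were measurable, KRT18 averaged 9901 and KRT8 1776 normalized reads in vehicle, whereas EPCAM was at 0 there and KRT19 and CFTR were below 10. All 10 mesenchyme and progenitor markers were measurable, VIM at 522537. By the limma test described below, 7 of these 10 were called lower with FOLFIRINOX and 0 higher. Of the 6 measurable ductal markers, SOX9 and KRT18 were called lower and 0 higher. Over all tested genes 12.2% were called lower and 11.4% higher. The summed level was 3515737 to 5250316 in vehicle and 2531558 to 3077363 in FOLFIRINOX for the mesenchyme list, and 11979 to 14439.7 and 8966 to 9959 for the ductal list. Summed marker levels of other cells were low in both groups: acinar 4.10 to 11.7 in vehicle and 7.87 to 16.5 in FOLFIRINOX with 4 of 8 markers at 0 throughout, endocrine 0 to 1.87 and 3.74 to 4.92 with 2 of 5 at 0, leukocyte 6.37 to 24.3 and 30.9 to 83.1, and endothelium 18.4 to 44.6 and 18.7 to 29.8. The leukocyte and endocrine sums were higher in every FOLFIRINOX library than in every vehicle library. Mitochondrial ribosomal RNA took 2.74%, 1.18% and 1.23% of reads in the P14, P15 and P19 FOLFIRINOX libraries and 0.864%, 0.563% and 0.552% in vehicle; the part of this share and of the marker lists in the results was not tested. In bulk samples, fewer cells of a type and less RNA per cell cannot be told apart.

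Most members that changed after FOLFIRINOX fell, while AKR1B10 rose. Of the 37 members, 28 reached 10 normalized reads in at least 3 libraries and were tested, and 9 were not. By limma on log2(normalized reads + 1), with p-values adjusted over all 17951 genes tested and a threshold of 0.05, 2 of 28 were called higher (7.14%) and 10 lower (35.7%). Over all tested genes the same rule called 11.4% higher and 12.2% lower. The median log2 difference, FOLFIRINOX minus vehicle, was -0.41 over the 28 members and 0.02 over all tested genes. The 3 FOLFIRINOX values lay entirely above the 3 vehicle values in 5 of the 28 members (17.9%) and entirely below in 12 (42.9%), against 19.9% and 19.6% of all tested genes. The 2 called higher were AKR1B10 and AKR1D1. AKR1D1 passed the expression filter only through its FOLFIRINOX libraries, so it had to differ and its call, counted in the 7.14%, supports nothing. AKR1D1 was also 1 of the 5 members whose FOLFIRINOX values lay entirely above, and there too the filter fixed its place. When all libraries were scaled to a common total the members gave 4 higher and 7 lower calls, where 14.99% and 9.44% of all tested genes were called; that scaling moved the median of all genes to 0.13 and the split of all calls from 2047 higher and 2191 lower (48.3% higher) to 2694 and 1696 (61.4%). The libraries of 1 number deviated together, and the fit with the P number as a block called 5 members higher and 13 lower, where 22.3% and 21.8% of all tested genes were called. No label states this pairing, which was taken from these same data, and that limit holds for every blocked p given below. An adjusted p was given for 33 members in the authors' deposited table, 4 called higher and 11 lower, with 9.5% and 9.89% of all genes so called. All 12 calls described here were among those, and the authors' deposited table added CBR4 and ALDH1A1 as higher and AKR7A2 as lower. Without both P14 libraries, the pair with the highest ribosomal share, 1 member was called higher and 6 lower, where 6.08% and 7.89% of all tested genes were called, AKR1D1 not being tested.

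**Figure D1:**
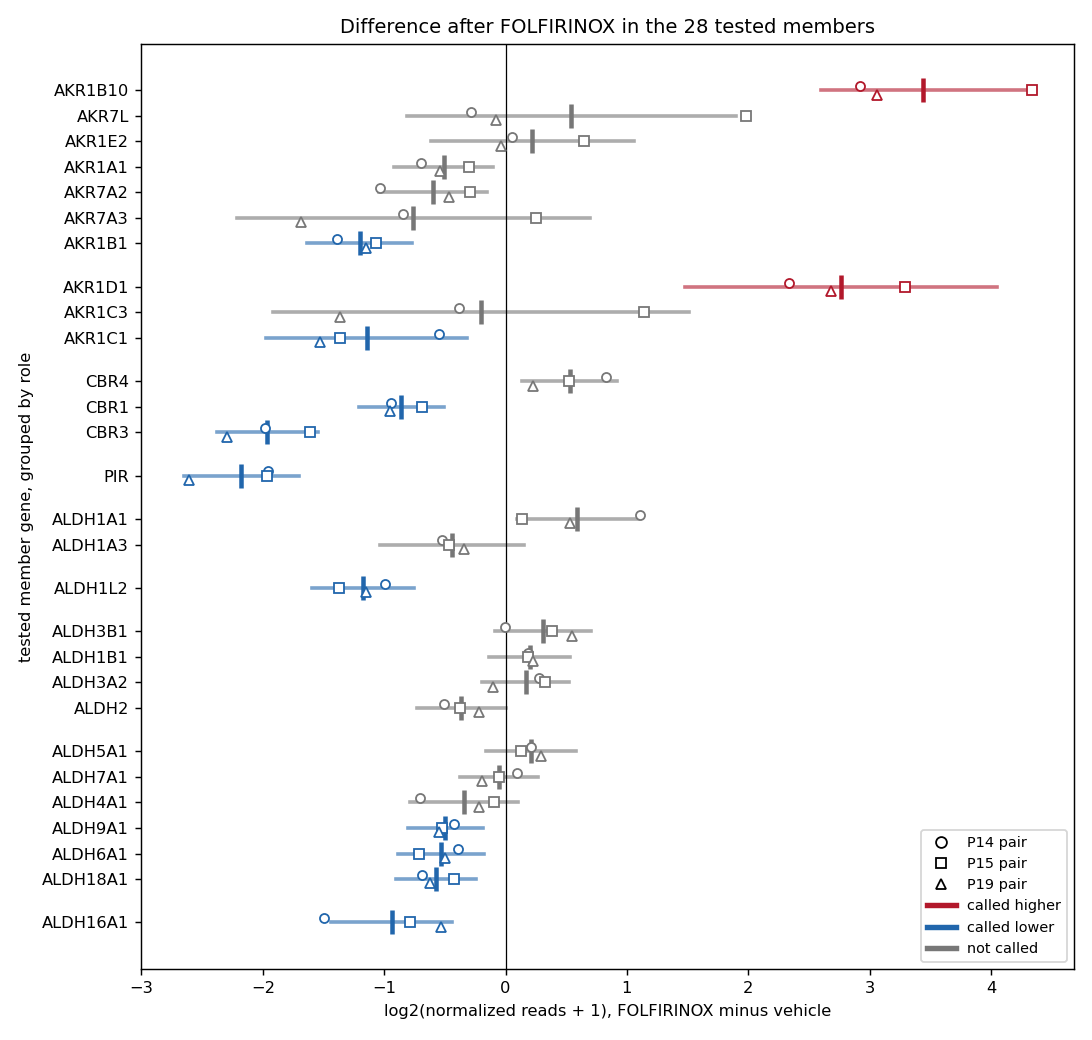
Log2 difference in normalized reads, FOLFIRINOX minus vehicle (x axis), for the 28 tested members grouped by role (y axis); the tick and bar are the fitted difference with its 95% interval and the open symbols are the P14, P15 and P19 pairs. AKR1B10 at 3.44 and AKR1D1 at 2.77 lie to the right of 0, PIR at -2.18 and CBR3 at -1.96 lie farthest to the left, and 10 bars are marked lower.

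The 5 members that were most abundant per exon length in vehicle were called lower after FOLFIRINOX, but the members ranked next were mixed. In vehicle the highest mean levels per kilobase of exon were those of ALDH9A1 at 4531, ALDH18A1 at 3484, CBR1 at 2858, AKR1B1 at 2752 and ALDH1L2 at 2311 normalized reads per kilobase. All 5 were called lower, where 12.2% of all tested genes were. The calls of ALDH9A1 and ALDH18A1 were lost in 9 and 5 of the 19 settings tried. Of the members ranked next, CBR3 was called lower, while AKR1A1, ALDH1B1, AKR7A2 and ALDH1A1 were not called. The differences of ALDH1B1 and ALDH1A1 were positive. Summed over the 37 members, the level was 25603 ± 984 per kilobase in vehicle and 17361 ± 715 in FOLFIRINOX. The ALDH genes held 57.1% of that sum in vehicle and 65.3% in FOLFIRINOX, the AKR genes 21.8% and 19.4%, the CBR genes 19.3% and 14.7%, and PIR 1.81% and 0.595%. These sums are given without a test. Exon length was the union of all annotated exons of a gene, and the ranks and shares depend on it. ALDH7A1, with 17970 such bases, had 8661 normalized reads in vehicle but 482 per kilobase, and was not called. ALDH1B1, at 1495 per kilobase in vehicle and 1716 in FOLFIRINOX, moved from the eighth to the third place among the members, and CBR3 from the sixth to the thirteenth.

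**Figure D2:**
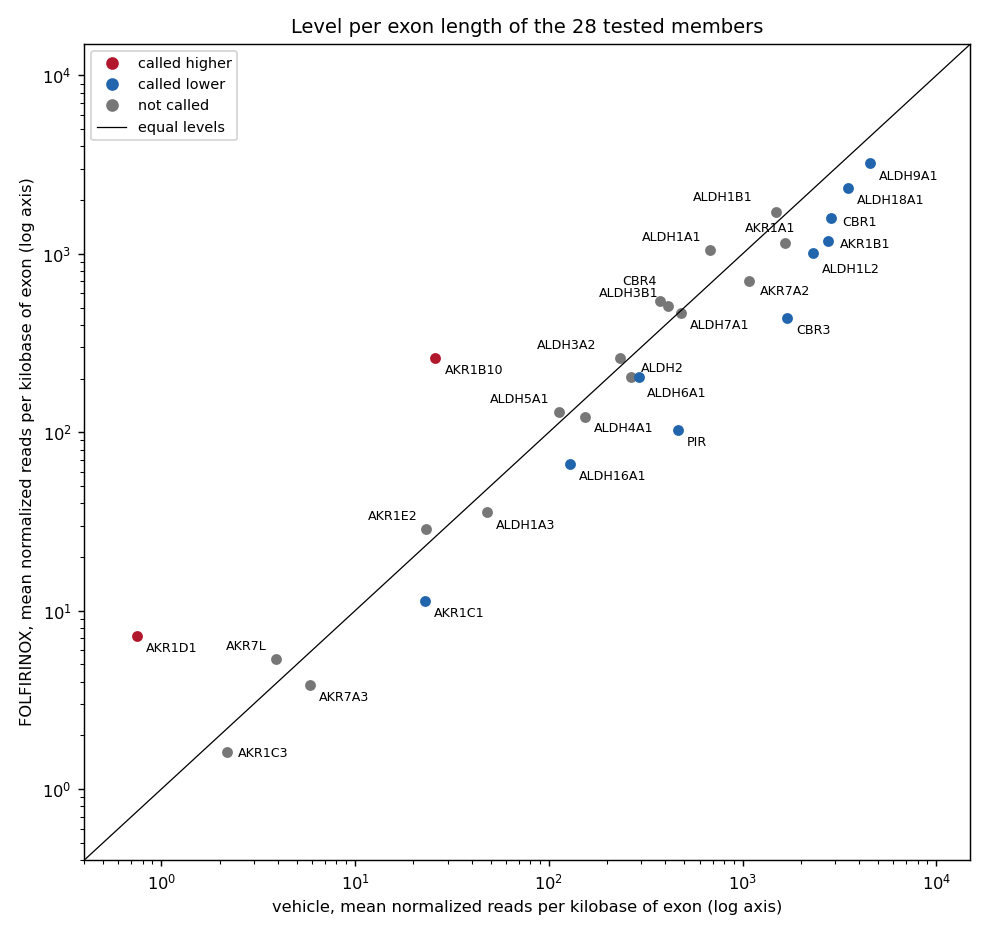
Mean normalized reads per kilobase of exon in vehicle (x axis) and FOLFIRINOX (y axis), both on log axes, for the 28 tested members, coloured by call; the line marks equal levels. ALDH9A1, ALDH18A1, CBR1, AKR1B1 and ALDH1L2 form the upper end below the line, while AKR1B10 stands above it, at 26.0 in vehicle and 261 in FOLFIRINOX.

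AKR1B1 and AKR1B10, neighbouring genes on chromosome 7 for related aldose reductases, changed in opposite directions. AKR1B1 encodes aldose reductase, which turns glucose into sorbitol and also reduces lipid aldehydes and prostaglandin precursors; AKR1B10 prefers retinal and lipid aldehydes and is a strongly NRF2-responsive gene. AKR1B1 (chr7:134442350-134459284, GRCh38, minus strand) had 12751, 9342 and 8121 normalized reads in the P14, P15 and P19 vehicle libraries and 4876, 4455 and 3664 in the matching FOLFIRINOX libraries, the order used throughout. Every FOLFIRINOX library was below every vehicle library, and AKR1B1 fell 2.3-fold, a log2 difference of -1.20 ± 0.20 (SE; 95% interval -1.63 to -0.77, limma adjusted p = 0.0014). AKR1B10 (chr7:134527592-134541408, plus strand), whose start is 68.3 kb from the AKR1B1 gene, had 71.7, 21.2 and 43 normalized reads in vehicle and 548, 448 and 367 in FOLFIRINOX. Every treated library was far above every vehicle library, and the P15 pair, whose vehicle library was lowest, showed the largest change; the 3 pairs differed by 2.92, 4.34 and 3.06 on the log2 scale. The increase was 10.9-fold, at 3.44 ± 0.38 (limma adjusted p = 9.4e-05). Per kilobase, AKR1B1 went from 2752 to 1184 and AKR1B10 from 26 to 261, so aldose reductase mRNA remained the more abundant of both. AKR1B15, 7.73 kb further along and 93.5% identical to AKR1B10 in its coding sequence, had 2, 0 and 0 reads in vehicle and 5, 4 and 6 in FOLFIRINOX and was not tested; 11.6% of the 50-base stretches of AKR1B10 transcripts also occur in AKR1B15, so a few reads could have been assigned to either. No 50-base stretch is shared by AKR1B1 and AKR1B10, which are 77.1% identical.

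The other aldehyde reductases had smaller differences. AKR1A1, the broad aldehyde reductase that also acts on glucuronate, had 6316, 4744 and 4440.4 normalized reads in vehicle and 3908, 3844 and 3062 in FOLFIRINOX. AKR7A2, a succinic semialdehyde and aflatoxin aldehyde reductase, had 2363, 1855 and 1544 in vehicle and 1155, 1513 and 1118 in FOLFIRINOX. Both had all treated libraries below all vehicle libraries without passing the threshold: AKR1A1 differed by -0.51 ± 0.18 (95% interval -0.92 to -0.10, limma adjusted p = 0.0686) and AKR7A2 by -0.60 ± 0.20 (-1.05 to -0.15, adjusted p = 0.0558). With the block on the P number, both passed, with limma adjusted p = 8.1e-04 and 9.7e-04 at the same differences. That fit called 21.8% of all tested genes lower, against 12.2% without the block. AKR1E2, an anhydrofructose reductase gene, had overlapping groups at 56.5 ± 14.1 normalized reads in vehicle and 69.1 ± 30.6 in FOLFIRINOX (difference 0.22 ± 0.38, 95% interval -0.62 to 1.06, adjusted p = 0.71). AKR7A3 and AKR7L were near the detection limit, at 10.0 ± 1.6 and 10.7 ± 6.77 in vehicle and 6.57 ± 5.42 and 14.9 ± 5.95 in FOLFIRINOX, with differences of -0.76 ± 0.66 and 0.54 ± 0.61 (adjusted p = 0.44 and 0.56). AKR7A3 and AKR7L are 95.8% identical in coding sequence, so reads may be split between them. The far more abundant AKR7A2 is 92.1% identical to AKR7A3 and 92.8% to AKR7L. Of their 50-base stretches, 4.21% and 8.82% also occur in AKR7A2, so some of their reads may come from it.

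The steroid- and prostaglandin-reducing AKR genes were low in these cells, at a summed 26.8 ± 5.56 normalized reads per kilobase in vehicle and 21 ± 6.04 in FOLFIRINOX, and AKR1C1 fell. AKR1C1, which inactivates progesterone and reduces many drugs, had 238, 214 and 152 normalized reads in vehicle and 163, 82.6 and 52.3 in FOLFIRINOX. Its groups overlapped, because the P14 FOLFIRINOX library was above the P19 vehicle library, yet each pair was lower after treatment, with differences of -0.55, -1.36 and -1.52 on the log2 scale. AKR1C1 fell 2.21-fold (-1.14 ± 0.38, 95% interval -1.97 to -0.32, limma adjusted p = 0.0483), a call close to the threshold. The call was lost without the P15 or P19 FOLFIRINOX library (adjusted p = 0.103 and 0.155) and without the P14 or P15 vehicle library (0.156 and 0.112); AKR1C2, 4.12 kb away and 98.0% identical in coding sequence, had 2, 14 and 0 reads in vehicle and 0, 6 and 4 in FOLFIRINOX and shares 28.3% of the 50-base stretches of AKR1C1, so the split of reads between these 2 genes is uncertain. AKR1C3, a prostaglandin F synthase and androgen-forming enzyme, had 16.4, 2.12 and 11.2 normalized reads in vehicle and 12.3, 5.9 and 3.74 in FOLFIRINOX, with a difference of -0.20 ± 0.78 (95% interval -1.91 to 1.51, adjusted p = 0.88). AKR1C4 had 0 reads in vehicle and 2, 0 and 0 in FOLFIRINOX, and AKR1C8 had 0 reads in all 6 libraries; a count of 0 allows up to 3 reads, or 2.80 to 3.18 normalized reads by library, for counting error only. AKR1D1, the steroid double-bond reductase of bile acid synthesis, had 2.05, 2.12 and 2.8 normalized reads in vehicle and 14.4, 29.5 and 23.3 in FOLFIRINOX, with no overlap. The 3 vehicle libraries held 7 reads of it together and the treated ones 69, a ratio per normalized depth of 9.63. The exact 95% interval of 4.43 to 24.8 covers counting error only, not the spread between libraries, and supports no call. The treated mean of AKR1D1 was 7.25 normalized reads per kilobase. The gene reached the filter only through all 3 FOLFIRINOX libraries, so no p is given for it.

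CBR1 and CBR3, 2 carbonyl reductases encoded 61.7 kb apart on chromosome 21, both fell, while CBR4 was not called. CBR1 reduces quinones, prostaglandins and anthracyclines, and CBR3 is a related enzyme with a narrower substrate range and a known NRF2 target. CBR1 (chr21:36069941-36073166) had 7738, 6748 and 6523 normalized reads in vehicle and 4025, 4197 and 3381 in FOLFIRINOX, a 1.81-fold fall (-0.86 ± 0.16, limma adjusted p = 0.0030). CBR3 (chr21:36134912-36146566) had 2195, 1726 and 2058 in vehicle and 554, 565 and 417 in FOLFIRINOX, a 3.9-fold fall (-1.96 ± 0.19, adjusted p = 3.0e-05), and its pairs differed by -1.98, -1.61 and -2.30. For both genes the highest treated library was far below the lowest vehicle library, and the P19 pair changed most. The levels per kilobase went from 2858 to 1579 for CBR1 and from 1705 to 438 for CBR3. The coding sequences are 77.9% identical with no shared 50-base stretch; 42.2% of CBR3's exonic bases overlap the antisense gene CBR3-AS1, which was listed at 120.3 normalized reads in vehicle and 63.1 in FOLFIRINOX, and whether the counting used strand is not given in the sources used here. CBR4, a subunit of the mitochondrial ketoacyl reductase of fatty acid synthesis, had 1784, 1706 and 2272 normalized reads in vehicle and 3172, 2457 and 2661 in FOLFIRINOX. The treated libraries were all above the vehicle libraries, with a difference of 0.53 ± 0.18 (95% interval 0.13 to 0.92, limma adjusted p = 0.0546) and a blocked adjusted p = 0.0015; 108 of its exonic bases (2.11%) overlap PALLD on the other strand, listed at 93349 and 106046 normalized reads.

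PIR had the largest decrease among the tested members. PIR (chrX:15384799-15493564, minus strand) had 1260.1, 979 and 1254 normalized reads in vehicle and 323, 249.8 and 205 in FOLFIRINOX. Every treated library was far below every vehicle library, and the 3 pairs differed by -1.96, -1.97 and -2.60 on the log2 scale. PIR fell 4.52-fold (-2.18 ± 0.21, limma adjusted p = 3.6e-05), from 464 to 103 normalized reads per kilobase. Over the settings tried, the calls of PIR, CBR3, CBR1, AKR1B1, AKR1B10 and ALDH1L2 were never lost.

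**Figure D3:**
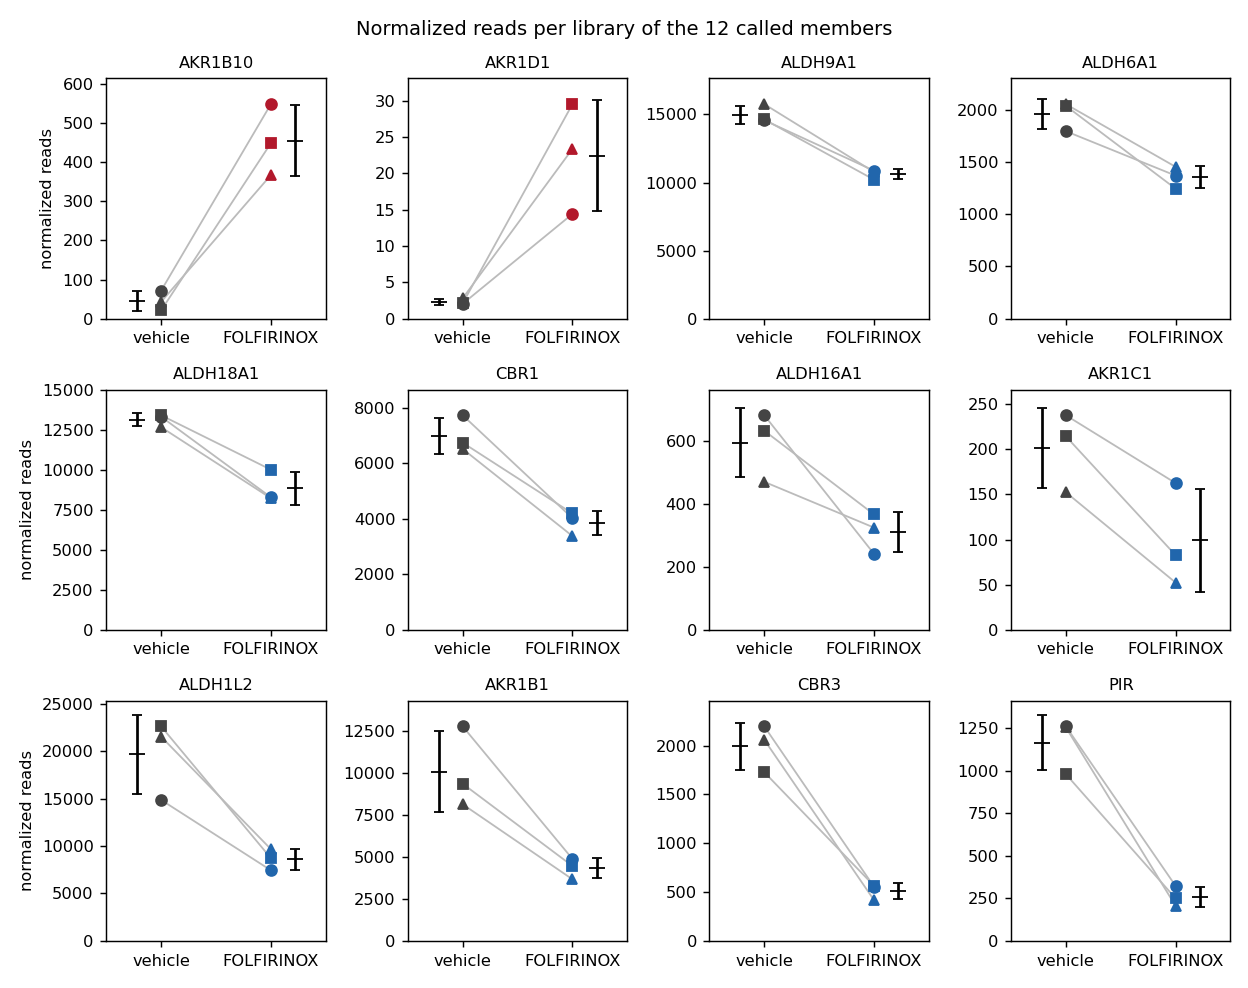
Normalized reads in each library (y axis, from 0, a scale per gene) for the 12 called members; circles, squares and triangles are P14, P15 and P19, lines join a pair, and the bar beside each group is the mean with its SD. AKR1B10 and AKR1D1 are higher in all 3 treated libraries of their pairs, the other 10 genes are lower in all 3, and only AKR1C1 has overlapping groups.

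Because NRF2 binds antioxidant response elements, the promoters were searched for the core letters TGACNNNGC on both strands, in windows from 250 bases before to 50 bases after each RefSeq gene start (RefSeq, GRCh38.p14). Of the 37 members, 28 were matched to a window, and AKR1B10, AKR1B15, AKR7L, ALDH16A1, ALDH1L2, ALDH2, ALDH3A1, ALDH3B2 and CBR3 were not. The letters occurred in 3 of the 28 members (10.7%), namely PIR, CBR1 and AKR7A2, and in 16.1% of all 27305 genes with a window. The 3 stretches are shown because they belong to a called gene each for PIR and CBR1 and to AKR7A2, which passed the test under some settings only; each is written 5′ to 3′ on the gene's strand, with the matching letters in capitals.

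PIR, chrX:15493291-15493315: cgcgaagcGCTGAGTCAcggtgagg
CBR1, chr21:36069845-36069893: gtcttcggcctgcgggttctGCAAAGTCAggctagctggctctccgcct
AKR7A2, chr1:19312225-19312321: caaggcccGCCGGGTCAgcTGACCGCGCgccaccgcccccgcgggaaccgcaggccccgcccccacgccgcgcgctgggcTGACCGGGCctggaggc

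In PIR the match lay 26 to 34 bases after the start, on the opposite strand as TGACTCAGC, where it overlaps the 7-letter motif TGACTCA of AP-1 factors; that motif occurred in 6.05% of all genes with a window and in PIR alone among the members. In CBR1 the match lay 159 to 151 bases before the start, on the opposite strand. AKR7A2 held 3 matches in 97 bases, 1 of them on the opposite strand. A match describes letters only and no binding was measured.

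None of the 3 retinaldehyde dehydrogenases, which make retinoic acid from retinal, passed limma's adjusted threshold; at an unadjusted p under 0.05 limma gave 1 and at its adjusted threshold edgeR gave 0 and DESeq2 1, all higher. ALDH1A1, also a widely used marker of progenitor cells, had 1680.1, 1869.5 and 2271 normalized reads in vehicle and 3623, 2049.6 and 3285 in FOLFIRINOX. The P14 and P19 treated libraries were above all vehicle libraries and the P15 treated library was not, and the pairs differed by 1.11, 0.13 and 0.53 on the log2 scale. The difference was 0.59 ± 0.23 (95% interval 0.09 to 1.09, limma adjusted p = 0.084), with a blocked adjusted p = 0.0011. ALDH1A3 had 209, 292 and 329.9 in vehicle and 145, 210.5 and 261 in FOLFIRINOX, with overlapping groups and a difference of -0.44 ± 0.27 (adjusted p = 0.26); 27.5% of its exonic bases overlap the antisense gene AC015712.2, listed at 187 and 289 normalized reads. ALDH1A2 had 1, 0 and 2 reads in vehicle and 0, 6 and 18 in FOLFIRINOX and was not tested. Outside the families, limma called 4 of 14 tested genes of a 24-gene retinoid list higher and 0 lower. Over all tested genes the shares were 11.4% and 12.2%. Of the list, 0 were lower at an unadjusted p under 0.05 and 0 by edgeR or DESeq2. With the block 5 were called higher and 2 lower, where 22.3% and 21.8% of all tested genes were. DHRS3, a retinal reductase, went from 66.6 ± 21.3 to 783 ± 126 normalized reads (3.57, adjusted p = 3.4e-06). CYP26B1, the retinoic acid hydroxylase, went from 2.72 ± 1.32 to 71.3 ± 21.8 normalized reads, a ratio of summed reads of 26.6. The exact 95% interval of 13.3 to 62.4 covers counting error only, not the spread between libraries. CYP26B1 passed the filter only through its treated libraries, so its call, counted among the 4 higher, supports nothing. RDH14, a retinol dehydrogenase gene, rose by 0.94 (adjusted p = 0.0054), as did RDH10, the main retinol dehydrogenase, by 0.94 (adjusted p = 0.0047), which was named after its values were seen.

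ALDH1L2, the mitochondrial formyltetrahydrofolate dehydrogenase that releases tetrahydrofolate and CO2 and yields NADPH, had the largest decrease among the 14 tested ALDH genes. It had 14859, 22607 and 21524 normalized reads in vehicle and 7444, 8725 and 9675 in FOLFIRINOX. The vehicle P14 library was the lowest control, and every treated library was well below it; the pairs differed by -1.0, -1.37 and -1.15 on the log2 scale. The fall was 2.26-fold (-1.17 ± 0.19, limma adjusted p = 0.0014), from 2311 to 1013 per kilobase. Its cytosolic counterpart ALDH1L1, 68.9% identical in coding sequence with no shared 50-base stretch, had 2, 0 and 6 reads in vehicle and 6, 14 and 8 in FOLFIRINOX and was not tested.

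Of the 6 ALDH genes of amino acid, proline and carnitine metabolism, 3 were called lower, by 1.41- to 1.49-fold, where 12.2% of all tested genes were called lower. ALDH18A1, the glutamate-to-pyrroline-carboxylate synthase at the entry of proline synthesis, had 13307, 13396 and 12655 normalized reads in vehicle and 8276, 10000.2 and 8218 in FOLFIRINOX, with no overlap. It fell 1.49-fold (-0.58 ± 0.15, limma adjusted p = 0.018). ALDH9A1, which forms the carnitine precursor butyrobetaine, had 14575, 14634 and 15756 in vehicle and 10870.4, 10208 and 10773 in FOLFIRINOX. ALDH6A1, which breaks down valine and thymine products, had 1793, 2035 and 2052 in vehicle and 1368, 1243 and 1452 in FOLFIRINOX, and 10.0% of its exonic bases overlap BBOF1 on the other strand, listed at 618 and 853 normalized reads. Both kept the groups apart, and they fell 1.41-fold (-0.50 ± 0.14, adjusted p = 0.026) and 1.45-fold (-0.53 ± 0.16, adjusted p = 0.034). All 3 calls were lost when libraries were scaled to a common total (adjusted p = 0.0603 for ALDH18A1, 0.0889 for ALDH9A1 and 0.0994 for ALDH6A1). With that scaling 9.44% of all tested genes were called lower. The 3 calls were lost as well without the FOLFIRINOX P14 (0.0544, 0.051 and 0.0705), FOLFIRINOX P19 (0.0973, 0.102 and 0.0848) or vehicle P15 library (0.0637, 0.0732 and 0.111), and for ALDH9A1 and ALDH6A1 also without FOLFIRINOX P15 (0.0951 and 0.116) or vehicle P19 (0.0557 and 0.0657). With 1 library left out, 8.55% to 12.2% of all tested genes were called lower. ALDH7A1, the lysine-pathway enzyme, had 8661 ± 507 normalized reads in vehicle and 8365 ± 582 in FOLFIRINOX, a difference of -0.05 ± 0.15 with a 95% interval of -0.37 to 0.27 (adjusted p = 0.83). ALDH4A1, of proline breakdown, had 564 ± 65.7 and 449 ± 86 (-0.34 ± 0.20, adjusted p = 0.25), and ALDH5A1, of GABA breakdown, 623 ± 37.3 and 719 ± 32.2 (0.21 ± 0.17, adjusted p = 0.40). Of the exonic bases of ALDH4A1, 41.1% overlap the same-strand gene AL080251.1, for which no values were listed. Summed over the 6 genes, the level was 9055 ± 120.1 per kilobase in vehicle and 6475 ± 156 in FOLFIRINOX.

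Among the partners of these enzymes, a 25-gene list of proline, amino acid and folate metabolism had 21 tested genes. Of these, 2 rose and 8 fell, where 11.4% and 12.2% of all tested genes did. With the block 2 were called higher and 9 lower, where 22.3% and 21.8% of all tested genes were. The folate enzymes SHMT1 and SHMT2, which move a carbon unit from serine to tetrahydrofolate, went from 1334 ± 217 to 134 ± 54.7 and from 11868 ± 1607 to 3464 ± 477 normalized reads (-3.37 and -1.78, adjusted p = 1.0e-05 and 3.0e-05). PYCR1, the last enzyme of proline synthesis and downstream of ALDH18A1, went from 4814 ± 942 to 1308 ± 122 (-1.86, adjusted p = 3.8e-05). ABAT, the GABA transaminase upstream of ALDH5A1, rose from 381 ± 37.5 to 805 ± 91.7 (1.08, adjusted p = 0.0018), and the other gene called higher was GAD1, at 4.22 ± 5.63 and 20.1 ± 6.7 (adjusted p = 0.0481), named after its values were seen. The proline dehydrogenase genes PRODH and PRODH2 were listed at 0 in every library.

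Of the 4 tested ALDH genes for acetaldehyde, fatty and lipid aldehydes, 0 were called by limma, with 0 at an unadjusted p under 0.05 and 0 by edgeR or DESeq2; with the GC trend removed limma called ALDH1B1 (0.31, adjusted p = 0.044) and ALDH3B1 (0.47, adjusted p = 0.0064) higher, where 14.9% of all tested genes were called higher. ALDH2, the mitochondrial acetaldehyde dehydrogenase, had 2842, 2691 and 2167 normalized reads in vehicle and 2001, 2077 and 1860.3 in FOLFIRINOX. ALDH1B1, its mitochondrial relative, had 4540.4, 5161 and 4453 in vehicle and 5173, 5854 and 5215 in FOLFIRINOX. ALDH2 had every treated library below every vehicle library, at -0.37 ± 0.17 (95% interval -0.73 to 0.00, limma adjusted p = 0.14, blocked 0.019), and ALDH1B1 all treated libraries above, at 0.20 ± 0.15 (-0.13 to 0.53, adjusted p = 0.37). ALDH3B1, which acts on lipid peroxidation products, had 3065, 2903 and 2213 in vehicle and 3053, 3789 and 3234 in FOLFIRINOX (0.31 ± 0.18, adjusted p = 0.24, blocked 0.049), and ALDH3A2, the fatty aldehyde dehydrogenase, had 1505 ± 130.1 and 1688 ± 136 (0.17 ± 0.16, adjusted p = 0.50). ALDH3A1 had 0 reads in vehicle and 0, 0 and 2 in FOLFIRINOX, and ALDH3B2 had 0 in vehicle and 2 in each FOLFIRINOX library. ALDH8A1 had 0, 0 and 6 reads in vehicle and 14, 8 and 11 in FOLFIRINOX, and none of these 3 was tested. ALDH16A1, a large member with a second, partial dehydrogenase domain, had 680.2, 631 and 469 normalized reads in vehicle and 241, 366 and 324 in FOLFIRINOX, with no overlap. It fell 1.92-fold (-0.94 ± 0.23, adjusted p = 0.012); the P14 pair, with the highest vehicle and lowest treated value, differed most, and without the vehicle P14 library or both P14 libraries the adjusted p was 0.0539 and 0.114.

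Genes of the NRF2 pathway outside the families were read from a list of 28, all tested. Of these, 2 rose and 8 fell, with a median log2 difference of -0.27, where 11.4% and 12.2% of all tested genes rose and fell. With the block 5 were called higher and 13 lower, where 22.3% and 21.8% of all tested genes were. NFE2L2, which encodes NRF2, had 10035 ± 1755 normalized reads in vehicle and 12654 ± 1814 in FOLFIRINOX (0.34, limma adjusted p = 0.20, blocked 0.013), and its inhibitor KEAP1 3307 ± 586 and 3039.9 ± 460.1 (-0.12, adjusted p = 0.69). The quinone reductase NQO1 fell from 47193 ± 4742 to 18484 ± 4505 (-1.37, adjusted p = 4.1e-04). PGD, a pentose phosphate pathway enzyme that makes the NADPH used by the AKR and CBR enzymes, fell by 1.35 on the log2 scale (adjusted p = 6.3e-05). The small MAF gene MAFK, a partner of NRF2, rose by 0.79 and the epoxide hydrolase gene EPHX1 by 0.67 (adjusted p = 0.0066 and 0.016). The AKR1B10 increase of 3.44 stood beside differences of -1.37 in NQO1, -1.96 in CBR3 and -2.18 in PIR on the same scale and in the same libraries.

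In a 25-gene list of steroid and prostaglandin enzymes outside the families, 22 were tested. Of these, 2 rose and 5 fell, where 11.4% and 12.2% of all tested genes did. With the block 4 were called higher and 6 lower, where 22.3% and 21.8% of all tested genes were. PTGS1, the cyclooxygenase that makes the prostaglandin precursor, fell from 53091 ± 6020.0 to 11919 ± 1685 normalized reads (-2.16, adjusted p = 4.6e-06), and HSD11B1, which activates cortisone, and HSD17B1, which forms estradiol, fell by 1.33 and 0.76 on the log2 scale (adjusted p = 0.032 and 0.034). PTGR2, a prostaglandin reductase, and HSD17B14 rose by 1.23 and 1.66 (adjusted p = 6.5e-04 and 0.0032). Of 19 alcohol, aldehyde and polyol enzymes, 14 were tested, 3 were called higher and 1 lower. With the block 4 were called higher and 2 lower. The shares of all tested genes are those given above for each fit. SORD, the sorbitol dehydrogenase that follows aldose reductase in the polyol pathway, fell from 2910.2 ± 244 to 1805 ± 70.2 (-0.69, adjusted p = 0.0087), beside the fall of AKR1B1. DHRS7 rose by 0.98 and ADHFE1, a hydroxyacid transhydrogenase, by 2.08 (limma adjusted p = 0.0020 and 0.0020). The third was DHRS2, at 1.33 ± 1.16 and 21.7 ± 10.5 normalized reads, named after its values were seen. DHRS2 passed the filter only through its treated libraries, so its call, counted among the 3 higher, supports nothing.

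**Figure D4:**
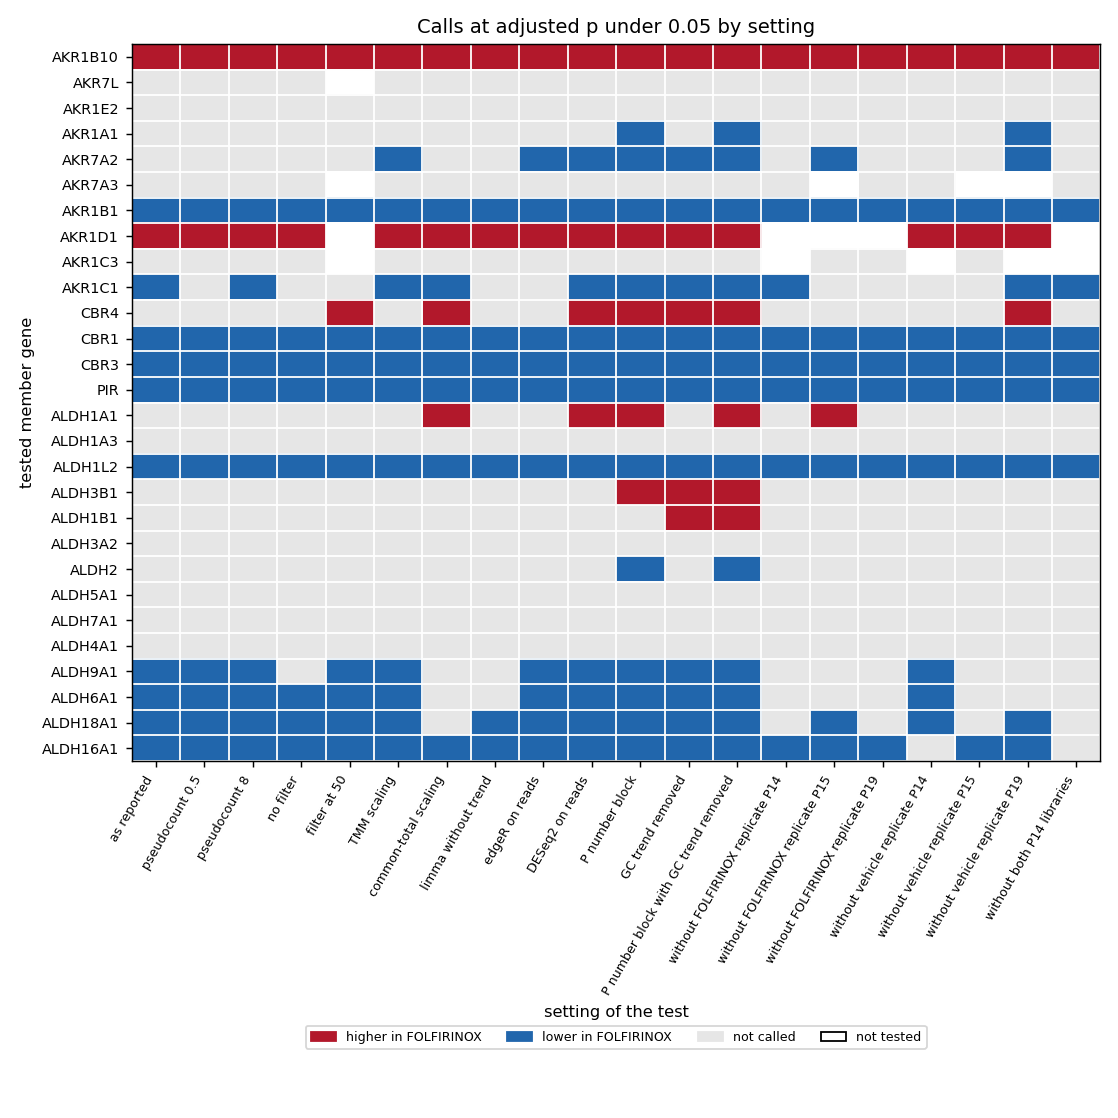
Calls at an adjusted p under 0.05 for the 28 tested members (y axis) under each setting of the test (x axis); red is higher in FOLFIRINOX, blue lower, grey not called and white not tested. PIR, CBR3, CBR1, ALDH1L2, AKR1B1 and AKR1B10 keep their colour in every column, while AKR1C1, ALDH6A1 and ALDH9A1 lose it in 8 or 9.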

How the data were processed

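Polyadenylated RNA was sequenced in 3 FOLFIRINOX and 3 vehicle libraries of HPNE-hTERT cells. Per the submitters' processing notes, reads were checked with FastQC 0.12.1, aligned to GRCh38 with STAR 2.7.11b, counted with featureCounts 2.0.6 and analysed with DESeq2. The authors deposited a signal table of read counts divided by library size factors, and a comparison table whose log2 fold changes, Wald statistics (a score) and p-values are the authors' own; strand and multi-mapping settings were not stated in these sources. The columns carry P numbers that the labels do not; each column was used as a library of its group.

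Dividing each column by its smallest step gave whole reads for 100% of values within 0.001; 72.3% to 74.8% of counts below 50 were even, so mates of a pair may have been counted as separate reads and counting intervals, which cover counting error only, are then too narrow. Genes at 10 or more in at least 3 libraries were tested with limma 3.58.1 (R 4.3.3), its prior variance following the mean, on log2(value + 1), two-sided, with Benjamini-Hochberg adjustment over 17951 genes; the fold change on this scale understates that of low genes. The median SE was 0.226. With 3 against 3 libraries an exact permutation test cannot go below p = 0.1, so none was used. Script steps were tested on simulated data. Alternatives were edgeR 4.0.16 and DESeq2 1.42.0 on recovered reads, other scalings, pseudocounts and filters, a GC trend, the replicate block and leaving libraries out. Libraries with the same P number correlated in their deviations from the group means (0.257, 0.282 and 0.288), so the numbers were taken to pair them. Other pairs gave -0.263 to -0.027, which is partly forced because deviations cancel within a group. The calls given as the main result used no pairing, and the replicate block is the fit that does. Replicates differed by far more than counting noise (chi-square per degree of freedom 76.0 to 231).

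Positions and exon lengths are from GENCODE 29, promoter windows from RefSeq. Every tested member is named; of each outside list, up to 3 called genes a direction with the largest difference and a mean of 50 or more, plus NFE2L2, KEAP1, NQO1, CDKN1A and MKI67. Some genes of these lists are not reported here by name. The members and lists were chosen with earlier results of these data known.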

Additional observations from a re-analysis of the deposited data

How the results depend on the processing

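The counts of members called were the least stable result, at 2 higher and 10 lower as reported. The higher count was 4 with common-total scaling and with DESeq2, 5 with the GC trend removed, 5 with the replicate block on the P number and 6 with the block and the GC correction together; the share of all tested genes called higher was 14.99%, 9.5%, 14.9%, 22.3% and 25.3% in that order, against 11.4% as reported. Leaving out 1 library gave 1 to 3 higher and 6 to 10 lower, with 1 higher without the FOLFIRINOX P14 or P19 library and 6 lower without the FOLFIRINOX P19 or vehicle P15 library; leaving out both P14 libraries gave 1 higher and 6 lower. Over all tested genes the calls ranged from 6.89% to 12.6% higher and from 8.55% to 12.2% lower with 1 library left out, and were 6.08% and 7.89% without both P14 libraries. AKR1D1 could not be tested without a FOLFIRINOX library, because only 3 libraries reached the minimum. No member that was called changed direction in any of the 19 settings, and 7 of the 12 calls were never lost where the gene was tested, AKR1D1, which passed the filter through 1 group only, among them. Over all members and settings 450 differences stayed on their side of the threshold in the same direction, 33 lost a call and 30 gained one. The blocked fit ended no call and added those of AKR1A1, AKR7A2, ALDH1A1, ALDH2, ALDH3B1 and CBR4. Sign changes were limited to uncalled members: ALDH7A1 was 0.059 with common-total scaling (adjusted p = 0.82), AKR1C3 ranged from -0.94 to 0.14 and AKR1E2 from -0.09 to 0.57 when libraries were left out, AKR1C3 being 0.14 without the FOLFIRINOX P19 library and AKR1E2 -0.094 without FOLFIRINOX P15 and -0.0028 without vehicle P19. AKR1C1 also lost its call at a pseudocount of 0.5 (adjusted p = 0.05, just above the threshold), without a filter (0.0645), with a filter at 50 (0.0502), without the trend (0.107) and with edgeR (0.0744). The causes were not tested. Depth limits AKR1C2, AKR1C3, AKR1C4, AKR1D1, AKR7A3 and AKR7L, which rest on few reads.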
